A study of Mus musculus with 35 samples.

Results

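The 10 genes described here, Bhlhe40, Bhlhe41, Per1, Per2, Per3, Nr1d1, Nr1d2, Dbp, Tef and Arntl, were taken by symbol from the 31053 genes of the deposited count tables and followed in all 35 libraries. Each library is whole kidney RNA of a mouse at postnatal day 2, before cysts form, on a C57BL/6 background. The Flcn KO mice, of genotype Flcn flox/flox with Ksp-cre+, lack folliculin only where the Ksp (Cdh16) promoter drives Cre, that is in collecting ducts, distal tubules and thick ascending limbs, so that whole kidney RNA also holds cells that were never recombined. Flcn/Tfeb DKO mice carry a floxed Tfeb gene deleted by the same Cre, and Flcn/Tfe3 DKO mice are null for Tfe3 in the whole body. Each cross had its own control group, and the study describes controls as Flcn flox/flox mice. The Flcn cross has 5 control and 5 KO libraries, the Flcn/Tfeb cross 3 and 4, and the Flcn/Tfe3 cross 8 and 10, all numbered as biological replicates. The libraries fall into 3 sets by how their counts were deposited: set A is the 17 libraries that have a file each, from the Flcn cross and the Flcn/Tfeb cross, set B is a table of 3 controls and 6 DKO libraries of the Flcn/Tfe3 cross, and set C a table of its other 5 controls and 4 DKO libraries. Both sexes were used, and the time of day at which kidneys were collected is not given in the sources used here.

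Between 1652649 and 4239356 counts per library fell on genes (median 2992169), and levels are given as CPM, the counts of a gene scaled to a common library size. Reads were taken from the 3' ends of transcripts, so a level depends on 1 short stretch of each gene. The 3' counts of the targeted genes did not separate the genotypes: Flcn was at 13.9 ± 2.26 CPM in the controls and 15.1 ± 3.25 in the libraries labelled Flcn KO (SD, n = 5 each), Tfeb at 11.96 ± 6.67 (n = 3) and 7.47 ± 0.680 (n = 4) in the Flcn/Tfeb cross, and Tfe3 at 19.2 ± 3.11 (n = 8) and 18.5 ± 3.80 (n = 10) in the Flcn/Tfe3 cross. A 3' read outside the deleted part of a gene checks nothing, and the labels do not place the deleted exons. Genotypes are therefore those of the labels.

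The circadian clock is a feedback loop of transcription in which the Arntl (BMAL1) and CLOCK proteins bind E-box sequences and switch on the Per genes, Nr1d1, Nr1d2, Bhlhe40, Bhlhe41, Dbp and Tef. PER proteins block that activator, BHLHE40 and BHLHE41 compete at the same E-boxes, and the nuclear receptors NR1D1 and NR1D2 repress Arntl, so that in adult tissues Arntl runs in antiphase to most of the others. DBP and TEF are bZIP activators that carry the rhythm to other genes through D-box sequences, Per3 among them. BHLHE40 and BHLHE41 also act outside the clock, in the responses to hypoxia and to growth signals.

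Promoter sequences are shown because the products of these genes act on one another through the motifs named above. RefSeq (GRCm38.p6) gave 11 promoters for 8 of the 10 genes, and the 250 bases before each start were searched on both strands for the E-box CACGTG, the D-box TTATGTAA or TTACGTAA, and the ROR element TAGGTCA bound by NR1D1 and NR1D2. The letters CACGTG were found in 4 promoters of 3 of these genes, and in 1978 of 32851 mouse promoters of that length (6.02%). The 5 sequences below that hold a motif are those of Bhlhe41, the gene with the largest fold change, and of Per1, Tef and Per3. Dbp is printed beside them and holds no motif searched. Each is printed 5' to 3' on the strand of its gene, with motif letters in capitals. Starts are numbered among the RefSeq starts of a gene. They can lie inside the gene bounds given below, which come from GENCODE.
Bhlhe41, chr6:145865421-145865670, minus strand: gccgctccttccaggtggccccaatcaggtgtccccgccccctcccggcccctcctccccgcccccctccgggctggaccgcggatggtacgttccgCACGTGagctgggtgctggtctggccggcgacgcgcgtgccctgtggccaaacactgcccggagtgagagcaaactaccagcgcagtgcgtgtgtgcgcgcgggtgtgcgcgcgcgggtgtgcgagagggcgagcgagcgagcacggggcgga
Per1, first start, chr11:69098699-69098948, plus strand: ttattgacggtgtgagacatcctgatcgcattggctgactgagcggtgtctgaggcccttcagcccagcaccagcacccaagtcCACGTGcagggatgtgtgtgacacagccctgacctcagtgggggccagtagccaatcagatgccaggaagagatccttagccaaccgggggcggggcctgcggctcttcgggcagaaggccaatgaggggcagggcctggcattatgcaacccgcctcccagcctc
Tef, first start, chr15:81802423-81802672, plus strand: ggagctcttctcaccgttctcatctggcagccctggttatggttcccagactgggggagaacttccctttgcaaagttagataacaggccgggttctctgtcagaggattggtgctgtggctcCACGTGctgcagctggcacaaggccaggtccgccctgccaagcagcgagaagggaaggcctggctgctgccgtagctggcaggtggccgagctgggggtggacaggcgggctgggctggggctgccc
Tef, second start, chr15:81811164-81811413, plus strand: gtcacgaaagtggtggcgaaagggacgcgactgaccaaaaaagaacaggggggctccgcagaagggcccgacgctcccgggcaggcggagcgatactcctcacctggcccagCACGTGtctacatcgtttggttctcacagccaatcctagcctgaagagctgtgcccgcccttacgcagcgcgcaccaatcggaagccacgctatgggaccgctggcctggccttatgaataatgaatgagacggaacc
Per3, chr4:151044666-151044915, minus strand: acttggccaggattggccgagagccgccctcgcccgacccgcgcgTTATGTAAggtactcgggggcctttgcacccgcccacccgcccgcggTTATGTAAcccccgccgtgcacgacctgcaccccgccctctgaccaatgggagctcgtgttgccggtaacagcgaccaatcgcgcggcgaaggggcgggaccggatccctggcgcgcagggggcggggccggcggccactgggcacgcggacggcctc
Dbp, chr7:45704997-45705246, plus strand: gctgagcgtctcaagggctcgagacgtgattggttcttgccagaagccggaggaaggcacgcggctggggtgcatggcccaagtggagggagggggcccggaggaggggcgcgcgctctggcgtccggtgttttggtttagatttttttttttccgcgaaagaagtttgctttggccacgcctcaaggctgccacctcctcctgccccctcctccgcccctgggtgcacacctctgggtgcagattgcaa
The E-box lay 153 to 148 bases upstream of the start of Bhlhe41, 166 to 161 upstream of that of Per1, and 127 to 122 and 138 to 133 upstream of both starts of Tef. Per3 held TTATGTAA at 205 to 198 and again at 158 to 151 bases upstream, whereas a D-box stood in 306 of all promoters (0.931%). TAGGTCA was in no member's promoter and in 734 promoters overall (2.23%). A match of letters is a description and no measurement of binding.

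Bhlhe41 (chr6:145858243-145865558, mm10, minus strand), an E-box repressor of the clock, was the only one of the 10 genes whose KO and control libraries did not overlap in a cross. In the Flcn cross the controls stood at 0.476, 0.909, 2.12, 1.48 and 1.17 CPM and the libraries labelled Flcn KO at 4.82, 3.73, 4.05, 2.51 and 6.16 CPM. Every KO library was above every control, and the group means were 1.23 ± 0.620 and 4.25 ± 1.35 CPM (SD, n = 5 each), a ratio of 3.45. These levels rest on 1 to 6 counts per control library and 4 to 21 per KO library. That separation was among the results known when the genes were chosen, so it is given as a description. Its exact permutation p (two-sided, on log2 of CPM plus 0.5) was 0.00794, the smallest that 5 against 5 allows, and 2.39% of the genes tested in this cross were also free of overlap, 1.69% with the KO higher. With so few counts the gene did not enter the main edgeR fit of this cross. With no filter on low counts its log2 fold change was 1.77 (SE 0.48) and its adjusted p 0.113 among 19420 genes (edgeR).

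In the Flcn/Tfeb cross Bhlhe41 stayed low on both sides. The controls were at 0, 0.584 and 0.862 CPM and the Flcn/Tfeb DKO libraries at 0.397, 1.94, 0.761 and 1.18 CPM, each from 0 to 3 counts. The count of 0 in control replicate 1 still allows up to 1.64 CPM on its raw total (3 counts, counting error only). On the TMM scale of the other levels that limit is higher, as 6 counts of Dbp stood at 3.502 CPM there. The groups overlapped, as they did for all but 5.65% of genes in this cross, or 2.90% with the DKO higher (exact permutation p = 0.257, smallest possible 0.0286). No difference was detected.

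In the Flcn/Tfe3 cross the 8 controls ranged from 0 to 3.501 CPM with a median of 1.73, and the 10 DKO libraries from 1.93 to 7.88 with a median of 4.13. Control replicates 5 and 8, both in set C, had no count, which allows up to 1.74 and 1.03 CPM on their raw totals. On the TMM scale these limits are higher too. There 1 count of Dbp stood at 0.695 CPM in replicate 5, and 16 counts of Per1 at 6.27 CPM in replicate 8. All 10 DKO libraries were above the control median, 8 of them above every control (groups free of overlap, 0.120% of genes, 0.112% with the DKO higher), and the means were 1.49 ± 1.28 (n = 8) and 4.48 ± 1.58 CPM (n = 10), a ratio of 3.005. The gap held in both sets, from 2.09 ± 0.510 to 3.87 ± 1.09 CPM in set B and from 1.13 ± 1.51 to 5.38 ± 1.91 CPM in set C. In set C depth separated the genotypes as well, with 1719367 to 2909353 counts in controls and 3159884 to 3555791 in DKO libraries, so that depth and genotype cannot be told apart there. In set B the totals overlapped, at 3538665 to 3873439 and 3122979 to 4239356 counts. Permuting labels within sets gave an exact p of 0.00198, with 0.0238 in set B alone and 0.0317 in set C alone. The log2 fold change was 1.48 (SE 0.39, unadjusted p = 0.000876), and the adjusted p of 0.130 did not pass the threshold of 0.05 in edgeR, though DESeq2 gave 0.0133. With the log2 total count as a term the value was 1.14 (unadjusted p = 0.0146, adjusted p = 0.763). Bhlhe41 passed the count filter of this cross mostly through its DKO libraries, so these edgeR and DESeq2 values are a description. With no filter on low counts its adjusted p was 0.115 among 20265 genes (edgeR).

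Over the 6 groups the mean level of Bhlhe41 ran from 4.48 CPM in the Flcn/Tfe3 DKO and 4.25 in the Flcn KO down to 1.49, 1.23, 1.07 and 0.482 CPM in the Flcn/Tfe3 controls, the Flcn controls, the Flcn/Tfeb DKO and the Flcn/Tfeb controls. The ranges of each neighbouring pair in this order overlapped. Whether the effect differed between crosses was tested directly, and it did not pass in any pair: the Flcn/Tfeb effect less the Flcn effect was -1.003 (SE 1.02, log2), Flcn/Tfe3 less Flcn -0.29 (SE 0.65), and Flcn/Tfe3 less Flcn/Tfeb 0.69 (SE 1.20). These wide errors leave a large difference possible in either direction.

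**Figure D1:**
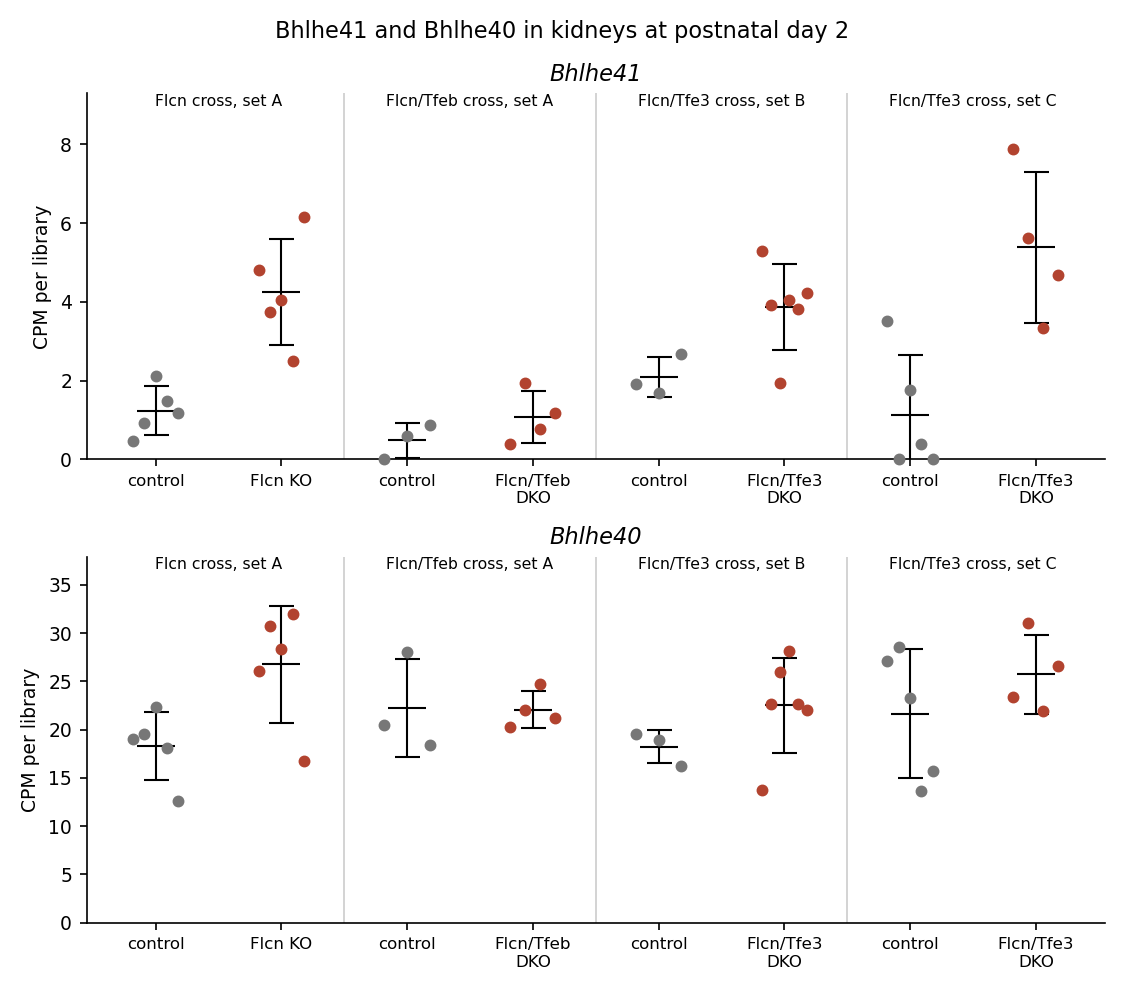
Level of Bhlhe41 (upper panel) and Bhlhe40 (lower panel) in CPM, one point per library, in 8 columns of group and set, with bars for the mean and SD. For Bhlhe41 the 5 Flcn KO points lie between 2.51 and 6.16 CPM, above all 5 controls of that cross, which reach 2.12 CPM. The Flcn/Tfeb columns stay under 2 CPM, and the DKO columns of the Flcn/Tfe3 cross sit higher than their controls with overlap.

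Some markers of tubule cells were called in the Flcn and Flcn/Tfe3 crosses, where 0.520% and 0.385% of all genes tested were called. Of 6 intercalated cell genes, Atp6v1g3, Atp6v0d2 and Aqp6 were called higher in the Flcn KO and Atp6v0d2 and Aqp6 in the Flcn/Tfe3 DKO. Of the thick limb and distal tubule genes only Umod was called, higher in both (1.0005, SE 0.12, and 0.71, SE 0.098, log2), and the list went no single way, with 3 of 6 values above 0 in the Flcn KO (median 0.06) and 2 of 5 in the Flcn/Tfe3 DKO (median -0.16). Of 6 principal cell genes Scnn1b alone was called, higher in the Flcn KO (0.58, SE 0.13), where the list ran from -0.48 to 0.71, and 0 were called in the Flcn/Tfe3 DKO (from -0.57 to 0.42). None of these 3 lists had a gene called in the Flcn/Tfeb DKO, where 0 of all 12469 genes tested were called. Atp6v1g3 and Aqp6 lay above all controls there, as did 2.90% of all genes, and Bhlhe41 did not. For the intercalated list, the summed level was 144 to 218 CPM in the Flcn controls and 394 to 546 in the Flcn KO, 186.8 to 233.5 and 266 to 280 in the Flcn/Tfeb cross, 156 to 199 and 287 to 443 in set B, and 168 to 259 and 278 to 384 in set C. In bulk RNA more cells of a type and more RNA per cell cannot be told apart, and the part of these cells in the Bhlhe41 values was not tested.

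Bhlhe40 (chr6:108660629-108666925, plus strand), the paralogue with the same E-box repressor role and a gene that hypoxia also induces, was measured at higher counts. In the Flcn cross the controls were at 19.1, 19.5, 22.3, 18.1 and 12.6 CPM and the KO libraries at 26.0, 30.7, 28.3, 32.0 and 16.7 CPM. Of the KO libraries 4 stood above every control and the fifth lay within the control range. The means were 18.3 ± 3.55 and 26.8 ± 6.05 CPM (n = 5 each), with a log2 fold change of 0.55 (SE 0.20) whose unadjusted p was 0.0128 and adjusted p 0.376 (edgeR). The exact permutation p was 0.0476.

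In the other crosses the Bhlhe40 groups overlapped and no test passed. Levels in the Flcn/Tfeb cross were 20.4, 28.0 and 18.4 CPM in controls against 20.2, 22.02, 24.7 and 21.2 CPM in DKO libraries, a log2 fold change of -0.01 (SE 0.23). In the Flcn/Tfe3 cross controls spanned 13.7 to 28.5 CPM (median 19.2) and DKO libraries 13.7 to 31.1 CPM (median 23.0), a log2 fold change of 0.30 (SE 0.16, adjusted p = 0.73). The difference between the Flcn/Tfeb and Flcn effects was -0.56 (SE 0.30, unadjusted p = 0.079) and was not called.

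Per2 and Arntl, a repressor of the loop and its activator, were not called in the Flcn/Tfe3 cross, and their DKO and control libraries overlapped. For Per2 (chr1:91415982-91459324, minus strand) the set B controls were at 1.91, 5.09 and 2.67 CPM and the DKO libraries at 4.82, 6.34, 7.73, 7.03, 3.05 and 7.97 CPM. In set C the controls were at 6.56, 9.04, 4.58, 5.70 and 2.35 CPM and the DKO libraries at 8.17, 7.76, 3.65 and 9.63 CPM. In both sets the ranges overlapped, with 7 of 10 DKO libraries above the median of all controls. The means were 4.74 ± 2.42 (n = 8) and 6.62 ± 2.13 CPM (n = 10), the log2 fold change was 0.67 (SE 0.28, unadjusted p = 0.0258, adjusted p = 0.566), and the exact permutation p was 0.0452 (0.0595 for set B and 0.397 for set C).

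Arntl (chr7:113207465-113314126, plus strand) had set B controls at 2.63, 5.33 and 5.33 CPM and DKO libraries at 2.65, 2.11, 3.04, 2.56, 1.52 and 3.52 CPM. The set C controls were at 8.75, 11.8, 3.53, 6.84 and 6.27 CPM and the DKO libraries at 2.25, 5.62, 4.26 and 4.96 CPM. All 10 DKO libraries were below the control median, 4 of them below every control. The means were 6.31 ± 2.92 (n = 8) and 3.25 ± 1.32 CPM (n = 10), a ratio of 0.515. The log2 fold change of -0.75 (SE 0.26) had an unadjusted p of 0.00865 and an adjusted p of 0.419, and the exact permutation p was 0.0107 (0.0833 for set B and 0.111 for set C). As for Bhlhe41, depth and genotype cannot be told apart in set C, and with the log2 total count as a term the values were -0.58 for Arntl (unadjusted p = 0.0616) and 0.88 for Per2 (unadjusted p = 0.00965).

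Neither gene stood out in the other crosses. Arntl was at 5.84 ± 2.66 CPM in controls and 5.21 ± 2.34 in Flcn KO libraries (n = 5 each), and at 5.23 ± 0.620 (n = 3) and 5.97 ± 2.10 CPM (n = 4) in the Flcn/Tfeb cross. Per2 was at 6.59 ± 2.60 and 5.19 ± 3.30 CPM in the Flcn cross and 6.77 ± 2.84 and 6.34 ± 2.19 CPM in the Flcn/Tfeb cross. The Per2 effect in the Flcn/Tfe3 cross less that in the Flcn cross was 0.999 (SE 0.49, unadjusted p = 0.051), and the Arntl effect in the Flcn/Tfe3 cross less that in the Flcn/Tfeb cross was -0.94 (SE 0.50, unadjusted p = 0.072), neither of them called.

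**Figure D2:**
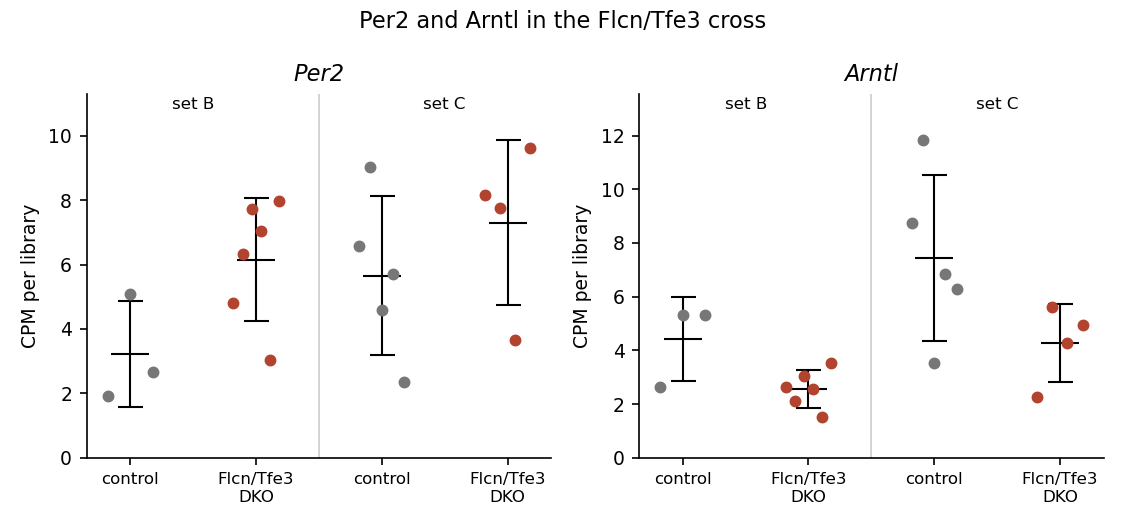
Level of Per2 and Arntl in CPM in the Flcn/Tfe3 cross, one point per library, controls and DKO libraries in sets B and C side by side, with the mean and SD. DKO libraries average 6.62 CPM for Per2 against 4.74 in controls and 3.25 CPM for Arntl against 6.31, with overlapping ranges within each set.

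Globin levels of red blood cells were also measured in this cross. All 5 red blood cell genes had a lower level in the Flcn/Tfe3 DKO at an unadjusted p under 0.05 (median log2 fold change -0.64), and none was called. Their summed level was 3589 to 5875 CPM in set B controls and 3215 to 6168 in set B DKO libraries, and 2073 to 7568 and 1395 to 1838 CPM in set C. The globin sums thus overlapped in set B and not in set C, whereas the mean of Arntl was lower in both, at 2.57 against 4.43 CPM in set B and 4.27 against 7.44 CPM in set C. Whether blood content has a part in the Arntl values was not tested.

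Per1 (chr11:69095217-69109960, plus strand) and Per3 (chr4:151003652-151044665, minus strand), the other Period repressors, were not called in any cross. Per1 in the Flcn cross was at 5.24, 4.09, 6.37, 8.17 and 8.51 CPM in controls and 2.89, 2.30, 3.68, 5.02 and 7.63 CPM in KO libraries. Of those KO libraries 3 lay below every control, and the log2 fold change was -0.61 (SE 0.34, adjusted p = 0.61, exact permutation p = 0.111). The groups of the other crosses were at 4.72 ± 3.91 (n = 3) and 6.76 ± 1.19 CPM (n = 4), and at 6.68 ± 2.34 (n = 8) and 6.89 ± 1.93 CPM (n = 10). Per3 ranged from 3.06 to 21.3 CPM over all libraries with log2 fold changes of 0.02 (SE 0.31), 0.18 (SE 0.36) and 0.15 (SE 0.23) in the 3 crosses, Flcn first and Flcn/Tfe3 last. The lowest and the highest Per3 library came from different crosses, and within each cross the groups overlapped.

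Nr1d1 and Nr1d2, the receptors that repress Arntl, were not called in any cross. Nr1d1 (chr11:98767932-98775333, minus strand) was low, between 0.705 and 5.54 CPM, and passed the count filter only in the Flcn/Tfe3 cross, at a log2 fold change of 0.13 (SE 0.34). The sets went opposite ways, with 3.01 ± 0.679 CPM in controls (n = 3) and 4.55 ± 1.17 in DKO libraries (n = 6) of set B, and 2.38 ± 1.68 (n = 5) and 1.67 ± 0.937 CPM (n = 4) in set C, and the ranges overlapped in both. Of its exons 263 bases, all within the last 500, lie opposite Thra on the other strand, and the strand setting of the counting is not given in the sources used here. Nr1d2 (chr14:18204054-18239127, minus strand) was at 30.6 ± 7.29 and 29.6 ± 2.07 CPM in the Flcn cross, 31.6 ± 12.01 and 41.3 ± 8.13 CPM in the Flcn/Tfeb cross, and 28.5 ± 7.59 and 26.6 ± 4.66 CPM in the Flcn/Tfe3 cross, controls first. The widest gap, in the Flcn/Tfeb cross, was a log2 fold change of 0.41 (SE 0.29, unadjusted p = 0.18).

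Dbp and Tef, the D-box activators at the output of the clock, did not pass either, and differed in how steady they were. Dbp (chr7:45705088-45710203, plus strand) ranged 20.3-fold, from 0.695 to 14.1 CPM, or 7.49-fold from 1.88 CPM without the lowest library, which held 1 count, and Tef (chr15:81802421-81826863, plus strand) 2.40-fold, from 47.8 to 115 CPM. In the Flcn cross Dbp was at 3.33, 6.36, 2.65, 6.93 and 7.34 CPM in controls and 3.86, 9.47, 6.62, 1.88 and 5.87 CPM in KO libraries, which overlapped throughout. In the Flcn/Tfeb cross controls were at 3.502, 4.09 and 14.1 CPM and DKO libraries at 7.94, 1.94, 2.66 and 5.51 CPM. The log2 fold change of -0.74 there (SE 0.59) rested on the control replicate 3 at 14.1 CPM, and it was 0.29 without that library. In the Flcn/Tfe3 cross 5 of 6 DKO libraries of set B lay below all of their controls (5.43 to 8.31 against 8.27 to 11.9 CPM, exact permutation p = 0.0238), while in set C the groups overlapped (exact permutation p = 0.905) and the fit over both sets gave -0.15 (SE 0.23). All of the last 500 bases of Dbp lie opposite exons of Sphk2 on the other strand. How reads there were assigned depends on the strand setting, which is not given in the sources used here.

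Tef levels in the Flcn cross were 69.9 to 82.3 CPM in controls and 68.0 to 77.1 in KO libraries, a log2 fold change of -0.06 (SE 0.10). The Flcn/Tfeb controls were at 110, 84.6 and 49.7 CPM and the DKO libraries at 86.9, 104, 115 and 99.9 CPM (0.31, SE 0.25). In the Flcn/Tfe3 cross the means were 60.7 ± 13.97 (n = 8) and 61.0 ± 9.86 CPM (n = 10). In each cross the Tef ranges overlapped, and the 3 Flcn/Tfeb controls spanned more than their DKO libraries.

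**Figure D3:**
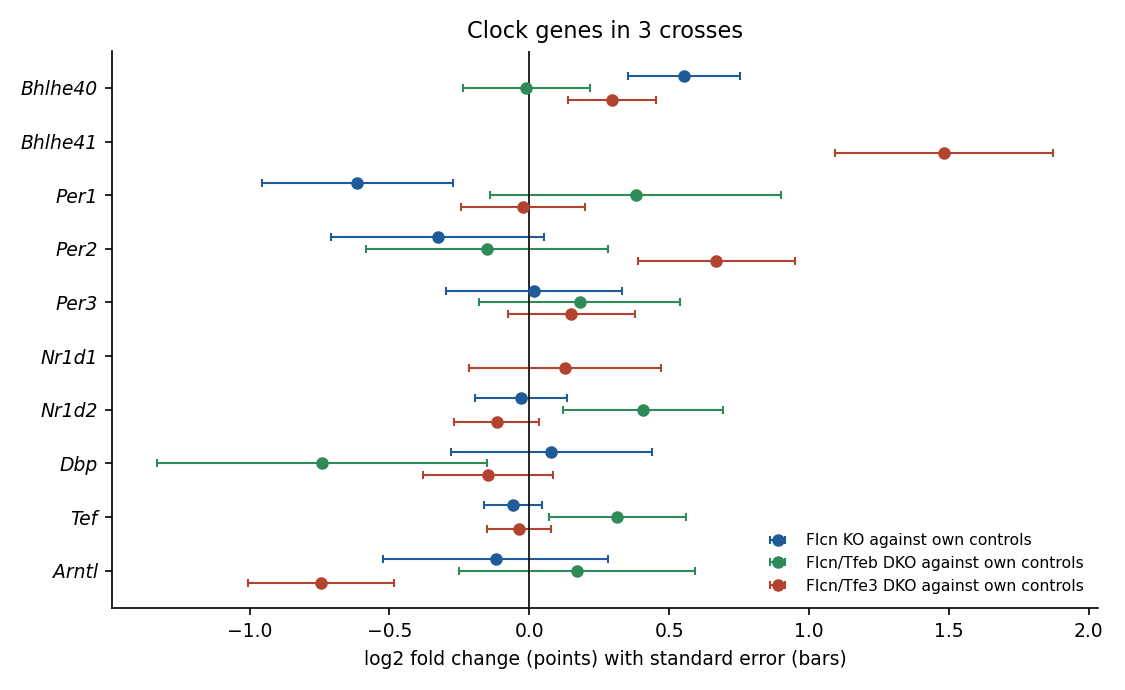
Log2 fold change with its standard error for the members tested in each of the 3 crosses (edgeR), each against its own controls; Bhlhe41 and Nr1d1 passed the count filter only in the Flcn/Tfe3 cross. Of the values plotted Bhlhe41 at 1.48 lies highest, Arntl at -0.75 lies lowest, and none passed the adjusted threshold.

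In edgeR 0 of the 10 genes were called at an adjusted p under 0.05 in any cross or in any difference between crosses. In the background 0.520% of 11932 genes were called for the Flcn KO, 0 of 12469 for the Flcn/Tfeb DKO and 0.385% of 12456 for the Flcn/Tfe3 DKO. At an unadjusted p under 0.05 the members numbered 1 of 8 tested for the Flcn KO (background 9.07%), 0 of 8 for the Flcn/Tfeb DKO (5.07%) and 3 of 10 for the Flcn/Tfe3 DKO (7.15%). In the last DESeq2 called Bhlhe41, which passed the count filter there mostly through its DKO libraries. Of 30 exact permutation tests, 5 gave p under 0.05, namely 2 of 10 for the Flcn KO, 0 for the Flcn/Tfeb DKO and 3 for the Flcn/Tfe3 DKO, where 8.54%, 3.85% and 6.55% of all genes did. The tally is a description, since it includes Bhlhe41, whose separation in the Flcn cross was known when the genes were chosen. The median log2 fold change of the members tested was -0.04, 0.18 and 0.05 in that order, and that of all genes -0.01, -0.02 and 0.01. For the differences between crosses the share of genes called was 0.0153% for Flcn/Tfeb less Flcn, 0 for Flcn/Tfe3 less Flcn and 0.0220% for Flcn/Tfe3 less Flcn/Tfeb, with 5.95%, 7.40% and 12.2% at an unadjusted p under 0.05 and 0 members among them.

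Among 17 other genes of the clock, 13, 12 and 13 were tested in the 3 crosses and 0 were called. In the Flcn cross Hlf, which encodes the third bZIP activator of the Dbp and Tef family, had the lowest value, -0.82 (SE 0.19, adjusted p = 0.0725), and its KO libraries all lay below its controls. Nfil3, the repressor of the same D-boxes, was at -0.72 (SE 0.27, adjusted p = 0.404) and Rorb, an activator at ROR elements, at 1.46 (SE 0.47, adjusted p = 0.298). The 3 were named after their values were seen. Above 0 were 5 of them for the Flcn KO (median -0.16), 4 for the Flcn/Tfeb DKO (median -0.15) and 9 for the Flcn/Tfe3 DKO (median 0.05). Lists of glucocorticoid-responsive, immediate early and hypoxia-responsive genes had 0 genes called in each cross.

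The second question was whether the genes varied together between kidneys of the same group. Each library's log2 CPM was therefore taken as its deviation from the mean of its group and set, and the 45 pairs of members were correlated over the 35 libraries. In the pairs the correlation r ran from -0.558 to 0.525 with a median of -0.064, and 20 of 45 were above 0. Of the 9 pairs with Arntl 5 were below 0 (median -0.012), and of the 36 others 16 were above 0 (median -0.066). In a limma fit across 13727 genes, 2 pairs were called with either gene as the reference, Dbp with Tef and Per3 with Dbp. With these references 13.1% (Dbp), 4.49% (Tef) and 2.06% (Per3) of all genes were called, so a call with Dbp as reference was common in these libraries.

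**Figure D4:**
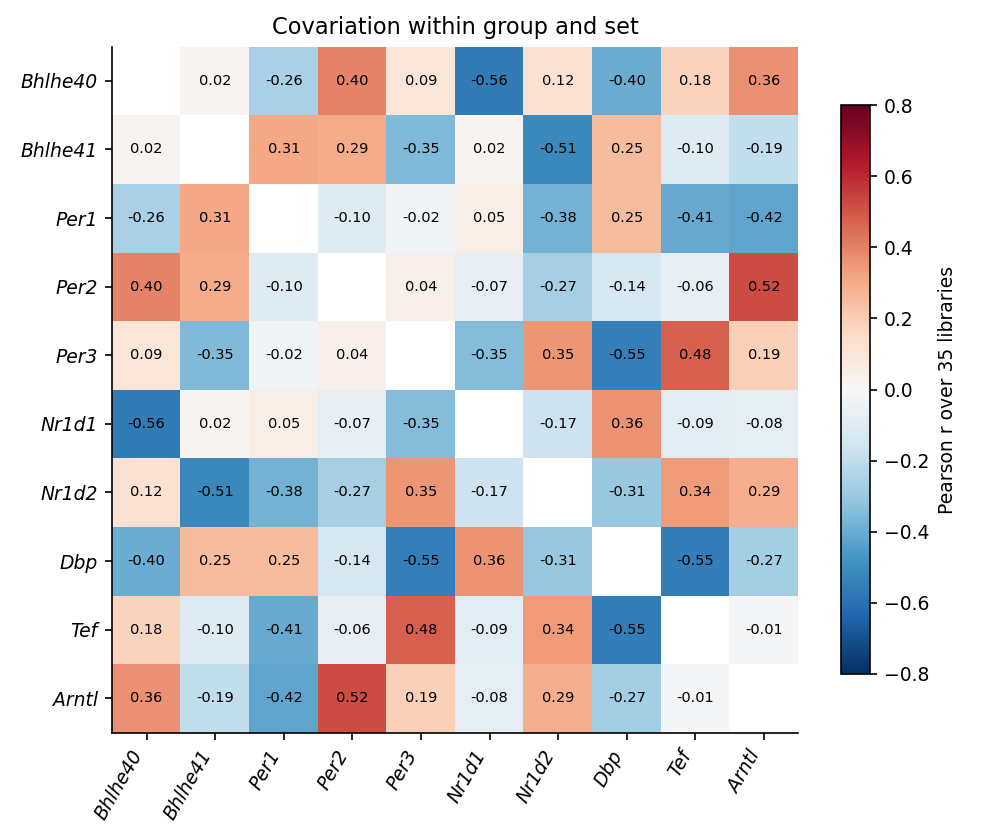
Correlation r of the 45 pairs of members over 35 libraries, computed on deviations of log2 CPM from the mean of group and set, as a heat map from negative to positive. The extremes are Bhlhe40 with Nr1d1 at -0.558 and Per2 with Arntl at 0.525.

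Dbp and Tef varied in opposite directions (r = -0.553, Spearman's rho -0.623, permutation p = 0.00065, adjusted p 0.0275 and 0.0335 in limma with Dbp and Tef as reference). The value was -0.615 without the 2 libraries farthest from the median, -0.700 in set A, -0.416 in set B and -0.530 in set C, and -0.698 in controls and -0.254 in knockouts. Per3 and Dbp gave r = -0.547 (rho -0.471, permutation p = 0.0105, adjusted p 0.0492 and 0.0242), with -0.457 without the 2 farthest libraries, -0.789 in set A, 0.117 in set B and -0.356 in set C. The second relation therefore did not hold within set B. When each of the 35 libraries was left out in turn, Dbp with Tef was still called 32 times and Per3 with Dbp 14 times.

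No other pair was called with both genes as reference. Per1 and Arntl, an E-box target and its activator, gave r = -0.419 (rho -0.432, permutation p = 0.00551, adjusted p 0.139 and 0.141), with -0.420, -0.551 and -0.374 in sets A, B and C. Per2 and Arntl gave r = 0.525 (rho 0.542, permutation p = 0.00535), with 0.523, 0.8001 and 0.371 in the 3 sets, and were called with Arntl as reference (adjusted p = 0.0499) and not with Per2 (0.999). With Arntl, Per1 and Per2 thus gave r of opposite signs, while Per3 gave 0.190. Per1 with Per2 gave r = -0.103. Bhlhe40 and Nr1d1 gave the lowest r, -0.558 (rho -0.562, permutation p = 0.00266, adjusted p 0.386 and 0.514), while the paralogues Bhlhe40 and Bhlhe41 gave 0.021. Bhlhe41 and Nr1d2 gave -0.513 (permutation p = 0.0188, adjusted p 0.199 and 0.043) and Per3 and Tef 0.479 (permutation p = 0.0120, adjusted p 0.120 and 0.0878). In all, 8 of the 45 pairs had a permutation p under 0.05. The share among pairs of all genes was not computed, so this count is a description. In the limma fit the share of all genes called ran from 0 with Bhlhe40 to 22.7% with Nr1d2.

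Sequencing depth moved with the same deviations. Over the 35 libraries the deviation of Dbp followed that of the log2 total count at r = 0.812 (rho 0.798, permutation p = 2e-05, adjusted over 20 relations 4e-04). It was 0.783 without the 2 farthest libraries and 0.845, 0.762 and 0.942 in sets A, B and C. Arntl (r = -0.550, adjusted p = 0.0168) and Per3 (r = -0.532, adjusted p = 0.0202) went the other way, though neither did so in set B (0.081 and 0.272). The total count varies with the amount sequenced and is divided out in CPM, so these are relations beyond that scaling. The share of counts on mitochondrial genes gave r = -0.644 for Dbp (permutation p = 0.0016), 0.565 for Arntl, 0.554 for Per3, 0.522 for Nr1d2, 0.515 for Tef, 0.504 for Bhlhe40 and -0.423 for Nr1d1. Of these Nr1d2 did not pass after adjustment (adjusted p = 0.0541), and the others had adjusted p from 0.0124 to 0.0463. In set B the sign was the other way for Dbp (0.0996), Arntl (-0.224), Nr1d1 (0.236) and Nr1d2 (-0.0867), and in set C for Nr1d1 (0.0567).

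With the log2 total count as a term in the same limma fit 0 pairs were called. The r of Dbp with Tef was -0.467 with the term against -0.553 without it, and that of Per3 with Dbp -0.233 against -0.547. For Dbp with Arntl it was 0.361 against -0.271, for Per2 with Arntl 0.504 against 0.525, and for Bhlhe40 with Nr1d1 -0.499 against -0.558. In the crosses the same term left 0 members called (edgeR), with Bhlhe40 at 0.57 (log2) in the Flcn cross. This term was chosen after the data had been seen, and what lies behind the relation of Dbp to depth was not tested.

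**Figure D5:**
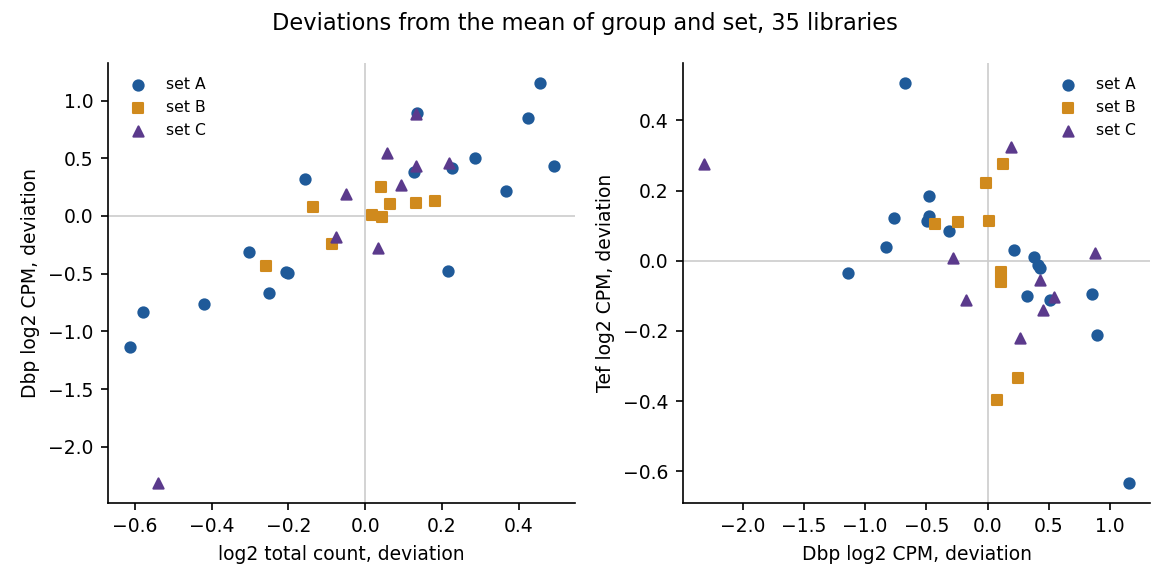
Left, deviation of Dbp log2 CPM against the deviation of the log2 total count, and right, deviation of Tef against that of Dbp, one point per library, each deviation taken from the mean of group and set. Dbp follows the total count at r = 0.812, and Tef goes against Dbp at r = -0.553.

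Of 13 other clock genes tested, 4 were called with Nr1d2, 2 with Dbp, 1 each with Per3 and Tef and 0 with Bhlhe40, Bhlhe41, Per2, Nr1d1 or Arntl, where 22.7%, 13.1%, 2.06% and 4.49% of all genes were called with the first 4. Clock, the partner of Arntl, was positive with Per3 (r = 0.646), Nr1d2 (0.601) and Tef (0.585) and negative with Dbp (-0.603). Csnk1d, Csnk1e and Usp2 were negative with Nr1d2 (-0.719, -0.574 and -0.556). Hlf was positive with Dbp (0.527), and Csnk1d with Per1 (0.564). Markers of kidney segments were called with Dbp in both directions in each of 3 lists: Foxi1 positive (0.671) and Atp6v1g3 negative (-0.551) among intercalated cell genes, Aqp3 (0.736) and Hsd11b2 (0.589) positive and Avpr2 negative (-0.508) among principal cell genes, and Calb1 positive (0.629) and Slc12a1 and Slc12a3 negative (-0.520 and -0.539) among thick limb and distal tubule genes. Genes of these 3 lists were also called with other members. With Per3 these were Calb1 (-0.717), Hsd11b2 (-0.624) and Slc12a3 (0.581), and with Per1 Slc12a1 (-0.585) and Atp6v1g3 (-0.563). With Nr1d2, Hsd11b2 and Calb1 were negative, and Atp6v0d2, Atp6v1g3 and Foxi1 were called in both directions. Hsd11b2 was called negative with Tef and Atp6v1g3 positive with Arntl. In each of the lists for podocytes, nephron progenitors, endothelium and stroma 1 of 5 genes was called with Dbp, and the list medians lay between -0.06 and 0.05. Egr1 and Klf9, an immediate early gene and a glucocorticoid-responsive gene, were called positive with Per1 (0.591 each) and negative with Arntl (-0.604 and -0.518). The medians of their lists were 0.23 and 0.14 with Per1 and -0.27 and -0.15 with Arntl. Of the same lists Ier2, Fkbp5 and Klf9 were called positive with Dbp, and Fkbp5 and Klf9 negative with Nr1d2. Of the red blood cell genes Hbb-bs, Hbb-bt and Hba-a1 were called positive with Arntl (0.635, 0.552 and 0.501). Hbb-bs and Hbb-bt were also called positive with Nr1d2, and Hbb-bt negative with Per1 (-0.518). These values were taken in the fit without the depth term, in which 8.39% and 6.58% of all genes were called with Per1 and Arntl.

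The genes most like 4 of the members, by r of the same deviations over 35 libraries among genes with a mean of at least 10 counts, were not clock genes. For Bhlhe40 they were 2610037D02Rik (0.72), Ptgfr (0.71) and Myom1 (0.69), none of them called (adjusted p 0.0594, 0.363 and 0.231 in limma). For Per1 they were Cdc42ep4 and Ecm1 (0.75 each) and Cdc5l (0.74). For Dbp they were Dnaja3 and Hp1bp3 (0.78 each) and Thap11 (0.77), and for Arntl Slc7a7 (0.75), Slc40a1 (0.74) and Rdh14 (0.72). These values are the highest among all genes compared and are given as a description.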

How the data were processed

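RNA of 35 mouse kidneys was made into QuantSeq 3' libraries from 100 ng and read as single ends of 100 bases. Per the study's methods and the submitters' processing notes, reads were trimmed (bbduk or Trim Galore), aligned to mm10 with STAR and counted per gene with HTSeq-count, and the authors deposited raw counts of uniquely aligned reads, with no normalization. Entries that name no gene were left out of library sizes: in 26 libraries, reads without a unique alignment made up 33.7 to 49.4%, reads on no gene 7.92 to 19.9% and ambiguous reads 0.317 to 0.500% of each total.

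The members and gene lists were chosen with earlier results of these data known. Each cross was fitted with edgeR 4.0.16 in R 4.3.3 (quasi-likelihood F test, filterByExpr, TMM factors, set as a covariate in the Flcn/Tfe3 cross), with p-values adjusted by Benjamini-Hochberg over all genes tested and called under 0.05. Differences between crosses were contrasts of such effects. Single genes had exact two-sided permutation tests of log2(CPM + 0.5), unadjusted, and CPM in the text use TMM factors over the 35 libraries. Covariation was fitted with limma 3.58.1 on log2 CPM (prior count 2) with 8 means of group and set, and correlations had 100000 permutations within these strata. All 10 members were named, other clock genes where called or extreme, the 3 genes most alike for 4 members, and called genes of the marker lists. Library pairs of a group differed beyond sampling noise (chi-square per degree of freedom 2.71 to 39.1 in 63 pairs), so none was merged. Total counts set the precision, and limits from counts use raw totals without TMM factors and cover counting error only. Replicate numbers did not pair libraries: of 13 correlations of same-numbered libraries, from -0.343 to 0.332, 4 were over 0.1. Each fit was tested on simulated counts. Of 200 genes changed 2-fold, 67% were called for Flcn KO, 33.5% for Flcn/Tfeb DKO and 96.5% for Flcn/Tfe3 DKO. Only 7% were called for Flcn/Tfeb less Flcn, 31% for Flcn/Tfe3 less Flcn and 20.5% for Flcn/Tfe3 less Flcn/Tfeb. Most 2-fold changes would thus be missed for the Flcn/Tfeb DKO and for all differences of effects. Alternatives included DESeq2 1.42.0, other scalings, filters, pseudocounts, sets and each library left out.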

Additional observations from a re-analysis of the deposited data

Results flagged for a closer look

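In 60 groups of 4 to 6 libraries of a set (10 genes), 4 held a library far from the others by its gap relative to the range of the group, where chance alone flags about 1 in 20 groups. Dbp in the Flcn/Tfe3 control replicate 5 of set C was the farthest, with a gap of 0.860 of the range: it had 1 count, or 0.695 CPM, against 8.46 to 11.8 CPM in the other 4 libraries. That library is also the shallowest of set C, with 1719367 counts. Dbp was lowest again in the Flcn/Tfe3 DKO replicate 2 of set B (0.793 of the range), at 5.43 CPM against 7.62 to 8.31 CPM in the other 5 libraries. Bhlhe40 was lowest in the DKO replicate 1 of set B (0.657 of the range), at 13.7 CPM from 57 counts, where the others had 22.04 to 28.1 CPM. Bhlhe41 was lowest in the DKO replicate 3 of set B (0.654 of the range), at 1.93 CPM from 7 counts, where the others had 3.81 to 5.30 CPM. No difference of effects between crosses was called for any of the 10 genes.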

How the results depend on the processing

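Of 698 values of the members under an alternative, 652 kept the sign of the value reported and 46 had the other sign, in 1 of which the reported value lay over 1 SE from 0: Dbp in the Flcn/Tfeb cross, -0.74 as reported and 0.29 without control replicate 3 (from -1.04 to 0.29 over the fits that leave out a library, 2 of which could not give a value because Dbp did not pass the count filter). One setting changed a call of a member: DESeq2 called 1 member, Bhlhe41, in the Flcn/Tfe3 cross, where edgeR called 0. That gene passed the count filter there mostly through its DKO libraries, so the call is a description. With no filter on low counts edgeR gave it an adjusted p of 0.115. With each library left out in turn 0 members were called in each comparison. The number of pairs called, 2 as reported, was 1 with a prior count of 0.5 and 0 in the controls alone, in set B alone, in set C alone and with the log2 total count as a term, the last chosen after the data were seen. Set A alone also gave 2, Per3 with Dbp and Nr1d2 with Tef, and lost Dbp with Tef. It ranged from 0 to 3 as each library was left out, with 0 without Flcn/Tfeb control replicate 1 or 3 or Flcn/Tfe3 control replicate 5, and 3 without Flcn/Tfe3 control replicate 4. The smaller settings hold fewer libraries, and for the others the cause was not tested.

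The replicate block, with numbers that are not shown to pair libraries, left 0 members called in the 3 crosses, with 48, 0 and 0 genes called in all. Among all genes, the 62 calls of the Flcn cross became 113 in DESeq2, 95 with no filter and 171 with the total count as a term. The 48 calls of the Flcn/Tfe3 cross became 96 in DESeq2, 8 in set B, 569 in set C, 0 with the block and 25 with the total count. The Flcn/Tfeb cross had 0 calls, or 3 in 1 fit of all 35 libraries and 1 without control replicate 1. For Flcn/Tfeb less Flcn 2 calls became 8 in DESeq2 and 5 in that fit, for Flcn/Tfe3 less Flcn 0 became 1 in DESeq2 and 459 in set C, and for Flcn/Tfe3 less Flcn/Tfeb 3 became 13 in DESeq2, 0 in set B and 1 in set C. Leaving out 1 library gave 37 to 58 calls in the Flcn cross (40, 37 and 39 without Flcn KO replicates 2, 3 and 4), 30 to 53 in the Flcn/Tfe3 cross (30 without DKO replicate 7), 0 to 3 for Flcn/Tfeb less Flcn (0 without Flcn/Tfeb DKO replicate 4) and 1 to 82 for Flcn/Tfe3 less Flcn/Tfeb. The last had 82 without Flcn/Tfeb control replicate 2, 5 without control replicate 1, and 1 without control replicate 3 or DKO replicate 2. Depth limits Bhlhe41 and Nr1d1 most, whose median libraries held 7 and 8 counts.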
